A study of Sus scrofa with 6 samples.

Results

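The genes described here carry out the lower steps of glycolysis and handle its end product, lactate. The chosen symbols were GAPDH, ENO1, TPI1, PGK1, ALDOA, LDHA, LDHB and BSG, and every probe set annotated to one of them was taken, whatever its signal. This gave 20 of the 24123 probe sets of the Affymetrix Porcine Genome Array. GAPDH had 14 of them, of which 9 are control probe sets of the array. ENO1, TPI1, PGK1, LDHA, LDHB and BSG had 1 each, and ALDOA, an aldolase, was not analysed here because no probe set carried its symbol. Of the 11 member probe sets that are not array controls, 10 were bright enough to be tested.

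The arrays measured pig embryos made by nuclear transfer, a method that moves the nucleus of a somatic cell into an oocyte whose own nucleus has been removed. Recipient oocytes came from a slaughterhouse, the donor cells were cultured fibroblasts of an adult Meishan pig, and each embryo array held a pool of 23 to 26 embryos collected 28 h after transfer, around the 2-cell stage. Embryos were injected with an antibody against DJ-1, a redox-sensitive protein (anti-DJ1, 2 arrays), injected with control IgG (2 arrays) or left without injection (1 array), and the donor cells were measured on 1 array. One array of each of the 4 groups made up trial 1, and the other anti-DJ1 and IgG embryos, prepared separately, made up trial 2. All embryos thus share the oocyte source, the donor cell type and the transfer procedure, and no fertilised embryo was among the groups.

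Glycolysis splits glucose into pyruvate in the cytosol. TPI1 interconverts the triose phosphates made by aldolase, GAPDH oxidises glyceraldehyde 3-phosphate, PGK1 then makes ATP, and ENO1 makes phosphoenolpyruvate near the end of the path. Lactate dehydrogenase, a tetramer of LDHA and LDHB subunits, interconverts pyruvate and lactate, and BSG (basigin, CD147) is the membrane partner that carries the monocarboxylate transporters, which move lactate and pyruvate, to the cell surface. Early mammalian cleavage-stage embryos are known to use pyruvate and lactate as major energy substrates, while cultured fibroblasts are strongly glycolytic.

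Signals are linear MAS5 intensities, which were scaled to a common level by the array maker's method: the trimmed mean of each array lay between 499.8 and 499.9. Background was read as the highest of each array's Tag controls, probe sets for sequences that are not in the sample, and lay between 21.4 and 47.0. Between 55.8% and 71.0% of probe sets lay above it. The 6 oocyte markers measured summed to 16430 to 38530 on the embryo arrays and 161.3 in the donor cells, whereas 8 fibroblast markers summed to 1053 to 1395 and 41600. VIM (31965) and THY1 (6443) made up most of the donor sum, S100A4 (1237) and TAGLN (907) also lay far above embryos, and COL1A2 (459) and COL3A1 (584) lay above each embryo array by less. A dimmer COL1A2 probe set, not in the sum, stood further apart, at 385 in donor cells and 4.04 to 24.6 in embryos. It lay above background on 1 of 5 embryo arrays. DCN (5.58) and LUM (1.71) were not above background in donor cells, and DCN, at 54.7 to 111, was higher in embryos. Of 7 cumulus and granulosa cell markers, 2 (INHA and INHBA) lay above the Tag controls on all 5 embryo arrays and 4 on no embryo array. The list summed to 1168 to 1693 in embryos and 858.3 in donor cells, and INHBA made up most of each sum. A small number of arrays limits the precision of every value below, and p-values measure only the spread between these arrays.

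All 7 measured genes were highest in the donor cells, in every case above each of the 5 embryo arrays. The share of all probe sets with this order was not computed. By the fit described below, 36.5% of tested probe sets passed as lower in embryos. GAPDH and ENO1 stood furthest apart, at 29.0 and 31.5 times the embryo median, and LDHB least, at 2.78 times. In bulk samples of this kind, fewer cells and less RNA per cell cannot be told apart, and scaling to a common array level removes any difference in total RNA.

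**Figure D1:**
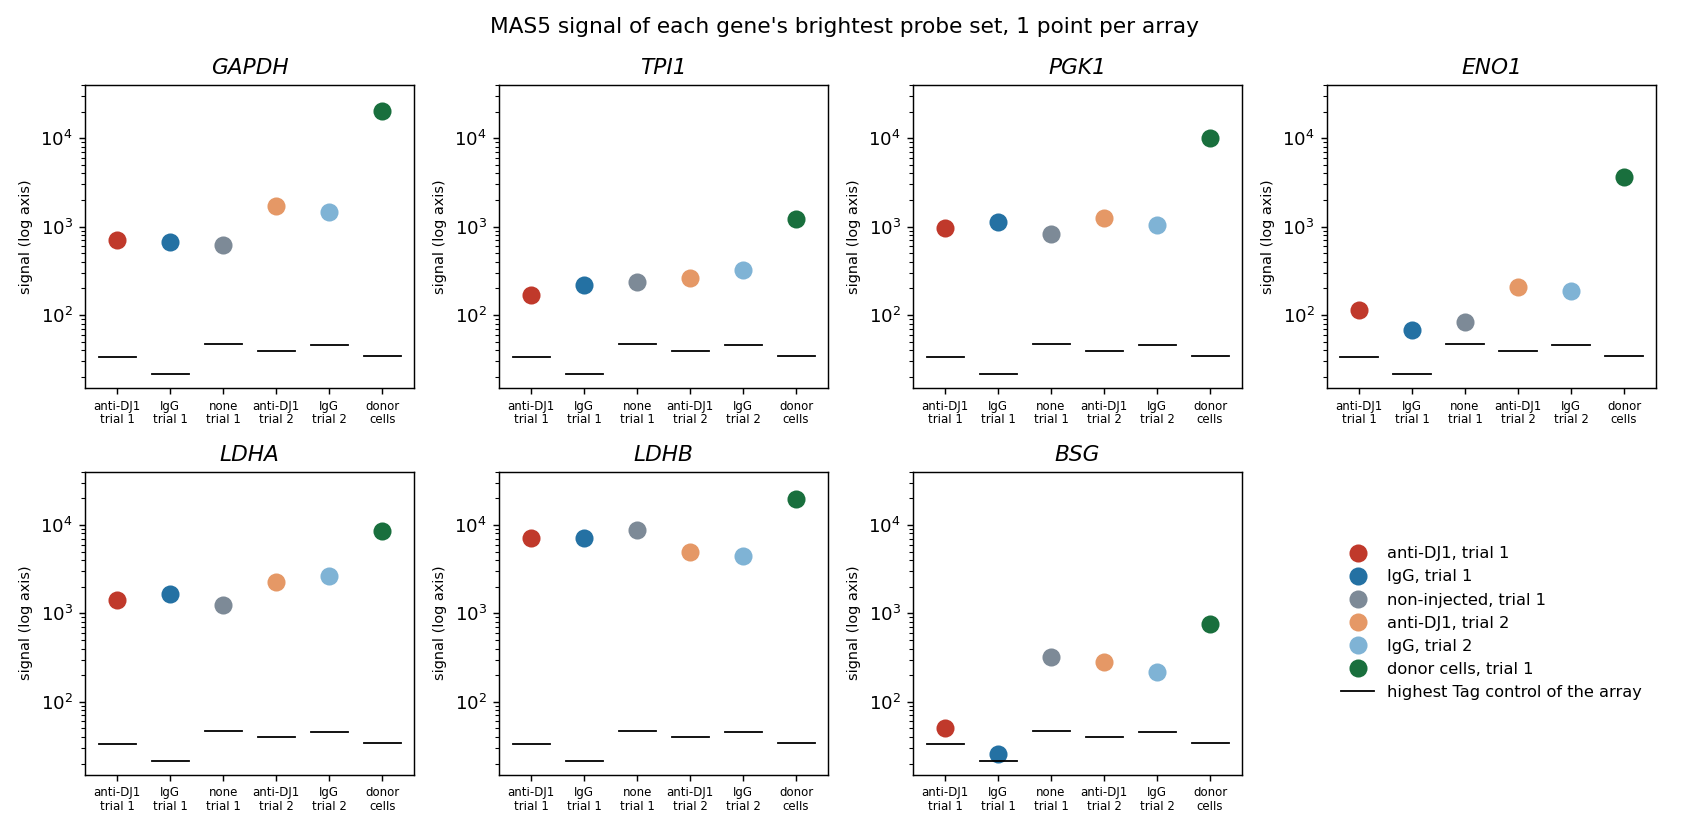
MAS5 signal (log axis) of the brightest probe set of each of the 7 genes on the 6 arrays, 1 point per array, with a line at the highest Tag control of that array. The donor cell array is the highest point in all 7 panels, and BSG has the widest spread among the 5 embryo arrays, from 25.4 to 319.6.

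Among the glycolytic enzymes, GAPDH is represented by its brightest probe set, Ssc.14942.1.S1_at. Its signal was 703 and 1724 in anti-DJ1 embryos of trials 1 and 2, 675 and 1481 in IgG embryos of trials 1 and 2, 611 in non-injected embryos, with donor cells at 20409. The 3 trial 1 embryo arrays lay close together, both trial 2 arrays lay above them, and the donor cells exceeded the highest embryo array 11.8-fold. ENO1 (Ssc.16707.1.S1_at) showed the same order of trials, with 115 and 207 in anti-DJ1 embryos, 67.5 and 186 in IgG embryos, 83.2 in non-injected embryos, with donor cells at 3625. The donor value was 17.5 times the highest embryo value.

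TPI1 (Ssc.1297.1.S1_at) read 170.5 and 260 in anti-DJ1 embryos, 216 and 326 in IgG embryos, 239 in non-injected embryos, with donor cells at 1231. Its anti-DJ1 arrays were the lower ones within each trial, and the 5 embryo arrays spanned 1.91-fold, the median span of all 14399 tested probe sets being also 1.91-fold. PGK1 (Ssc.935.1.S1_at) had the narrowest span of the 7 genes, 1.54-fold. It read 959.9 and 1257 in anti-DJ1 embryos, 1113 and 1050.1 in IgG embryos, 818 in non-injected embryos, with donor cells at 10151. The non-injected array was the lowest for PGK1, and the trials overlapped.

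The lactate dehydrogenase subunits ran in opposite order among the embryos. LDHA (Ssc.13826.1.S1_at) read 1422 and 2263 in anti-DJ1 embryos, 1665 and 2641 in IgG embryos, 1237 in non-injected embryos, with donor cells at 8584. Its lowest embryo array was the non-injected one and its highest were those of trial 2. LDHB (Ssc.11123.1.A1_at) read 7108 and 4901 in anti-DJ1 embryos, 7157 and 4427 in IgG embryos, 8694 in non-injected embryos, with donor cells at 19794. Here the non-injected array was the highest embryo array and the 2 arrays of trial 2 were the lowest.

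BSG (Ssc.16711.1.S1_at) varied most. Its signal was 50.7 and 284 in anti-DJ1 embryos, 25.4 and 217 in IgG embryos, 319.6 in non-injected embryos, with donor cells at 763. The injected embryos of trial 1 were the low arrays, and the IgG array of trial 1 lay barely above its own highest Tag control of 21.4. The span over embryo arrays was 12.6-fold, and 1.44% of the tested probe sets had a larger one.

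The fit with limma, on log2(signal + 4.57) with group and trial as terms, compared the embryos with the donor cells. Because trial 2 held no donor cells, the estimate equals the mean of the 3 trial 1 embryo arrays minus the single donor array, and the test assumes that this array varies like the replicated ones. All 7 genes were lower in embryos: GAPDH by a log2 change of -4.94 ± 0.15 (SE, adjusted p = 3.07e-11), ENO1 by -5.32 ± 0.27 (adjusted p = 3.46e-09) and PGK1 by -3.40 ± 0.17 (adjusted p = 2.38e-09). TPI1 changed by -2.55 ± 0.22 (adjusted p = 4.73e-07). LDHA changed by -2.58 ± 0.14 (adjusted p = 4.64e-09), LDHB by -1.38 ± 0.12 (adjusted p = 4.2e-07) and BSG by -3.24 ± 0.30 (adjusted p = 6.92e-07). Embryos and fibroblasts differed widely in general: 72.9% of tested probe sets passed the adjusted threshold of 0.05, 36.5% as lower and 36.4% as higher in embryos, and the median over all was -0.02 against -3.24 for the 7 genes. Of the 10 member probe sets, 9 passed, all as lower.

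The injected embryos of trial 2, set against the same donor array, gave smaller differences for 6 of the genes, at -3.67 for GAPDH, -4.18 for ENO1, -2.07 for TPI1, -3.14 for PGK1, -1.81 for LDHA and -1.60 for BSG. For LDHB the difference was larger, at -2.09. Scaling moved the comparison as a whole, since the median over all probe sets rose to 0.42 under quantile normalization and 0.59 with a common 75th percentile, and the share of calls that were higher in embryos rose from 50.0% to 59.7% and 63.2%. All 7 genes remained lower under both scalings, with LDHB at -0.74 and GAPDH at -4.30 under the common 75th percentile. Only BSG lost its call in any alternative of the brightest probe set: it was -2.36 without the trial block (adjusted p = 0.174, limma), and -1.96 when the anti-DJ1 array of trial 1 was also left out (adjusted p = 0.0539).

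**Figure D2:**
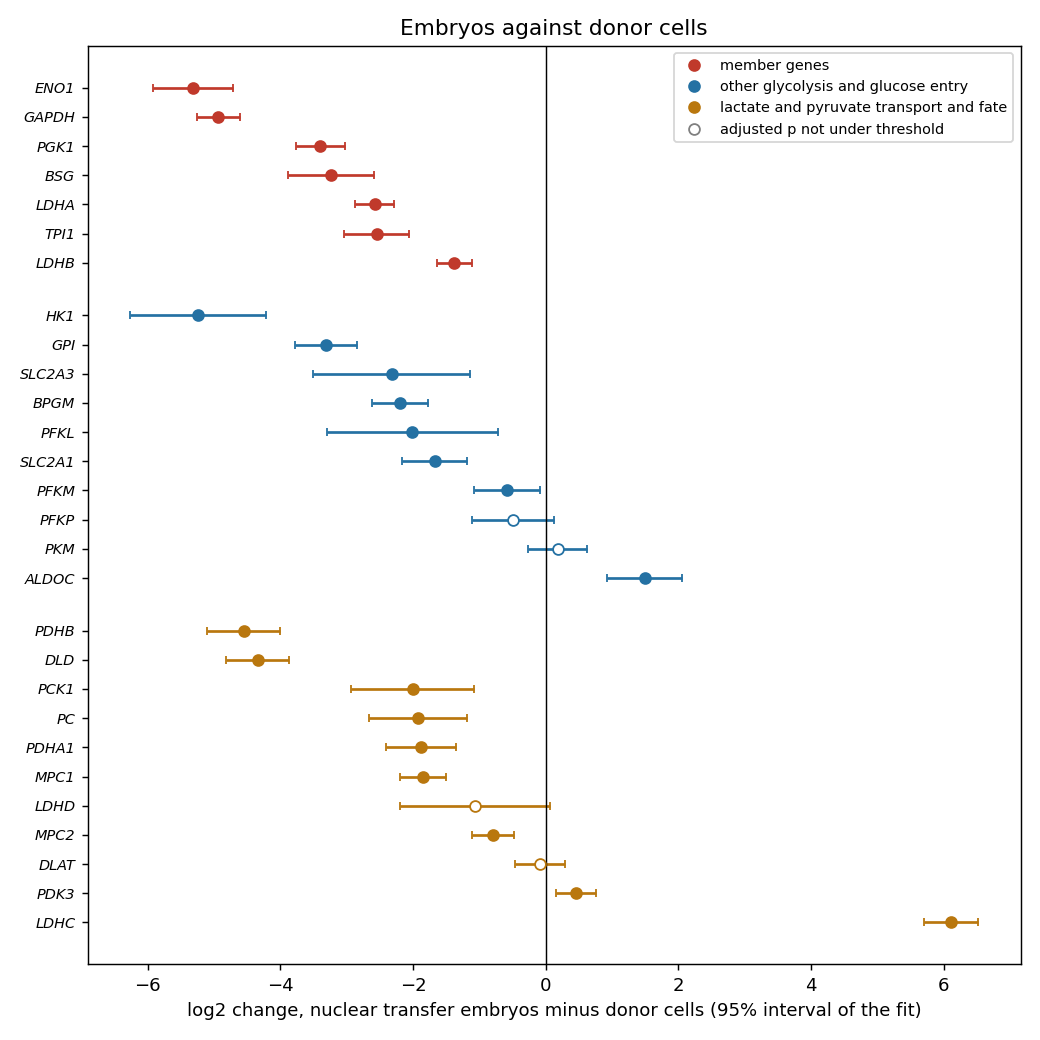
Log2 change, nuclear transfer embryos minus donor cells, with the 95% interval of the limma fit, for the 7 member genes and the tested genes of a pair of pathway lists; filled points passed the adjusted threshold. All member genes lie left of 0, from -5.32 for ENO1 to -1.38 for LDHB, while LDHC lies far right, with a donor signal that was not above background.

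The 14 probe sets annotated to GAPDH allow a look within 1 transcript. The donor array was the highest in 13 of the 14, with a donor signal between 1.07 and 153 times the embryo median. In 12 of them both trial 2 embryo arrays lay above all 3 trial 1 embryo arrays. The shares of all probe sets with these orders were not computed, and 32.3% of tested probe sets passed between trials. The 14 read 1 gene on the same arrays, so they are not replicates. Among the tested ones, Ssc.14942.1.S1_s_at read 254 and 581 in anti-DJ1, 129 and 463 in IgG and 124 in non-injected embryos, with donor cells at 4457, a log2 change of -4.77 ± 0.23 between embryos and donor cells. Ssc.1035.1.S1_at read 82.5 and 202 in anti-DJ1, 66.1 and 193 in IgG and 98.9 in non-injected embryos, with donor cells at 1419, a change of -4.05 ± 0.28. Both thus ranked trials and donor cells as the brightest probe set did. The exceptions were the pair Ssc.16135.1.A1_at and Ssc.16135.1.S1_at. The first read 65.6 and 63.8 in anti-DJ1, 53.9 and 65.4 in IgG, 82.9 in non-injected embryos, with donor cells at 69.8, with a log2 change of -0.07 ± 0.46 between embryos and donor cells (limma, adjusted p = 0.906). Its arrays therefore did not separate embryos from fibroblasts. The second, Ssc.16135.1.S1_at, lay above the Tag controls on the donor array alone and was not tested. Whether this pair detects the GAPDH transcript was not tested, and without it the donor signal was 4.54 to 153 times the embryo median.

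The array's own GAPDH controls sit toward the 3′ end, in the middle and toward the 5′ end of the transcript, and form several sets. In the brightest set, the 3′ control read 706 and 1459 in anti-DJ1 embryos of trials 1 and 2, 565 and 1470.0 in IgG embryos, 549 in non-injected embryos, with donor cells at 17117. The middle control read 90.6 and 546 in anti-DJ1, 59.7 and 418 in IgG, 40.6 in non-injected embryos, with donor cells at 5593. The 5′ control read 40.2 and 219, 75.7 and 91.4, 64.6 and 813 in the same order. From trial 1 to trial 2, the signal of the IgG embryos rose 2.60-fold at the 3′ end, 7.0-fold in the middle and 1.21-fold at the 5′ end, and that of the anti-DJ1 embryos 2.07-fold, 6.03-fold and 5.45-fold. In the trial 1 embryo arrays the middle and 5′ controls of this set lay between 40.2 and 90.6, close to the Tag controls. Another set, named AFFX-Ss_Gapdh, gave another order: its log2 differences between trials were 1.66 and 2.06 at the 3′ end (IgG and anti-DJ1 embryos), 0.41 and 0.92 in the middle and 1.23 and 1.66 at the 5′ end. In the set with names ending in _s_at these differences were 1.75 and 1.37, 3.65 and 3.39, and 0.65 and 0.84 in the same order. Its middle control was not above background on the trial 1 embryo arrays. The size of the trial difference in GAPDH thus varied between its probe sets. The middle control moved most in the brightest and the _s_at sets and least in the AFFX-Ss_Gapdh set.

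**Figure D3:**
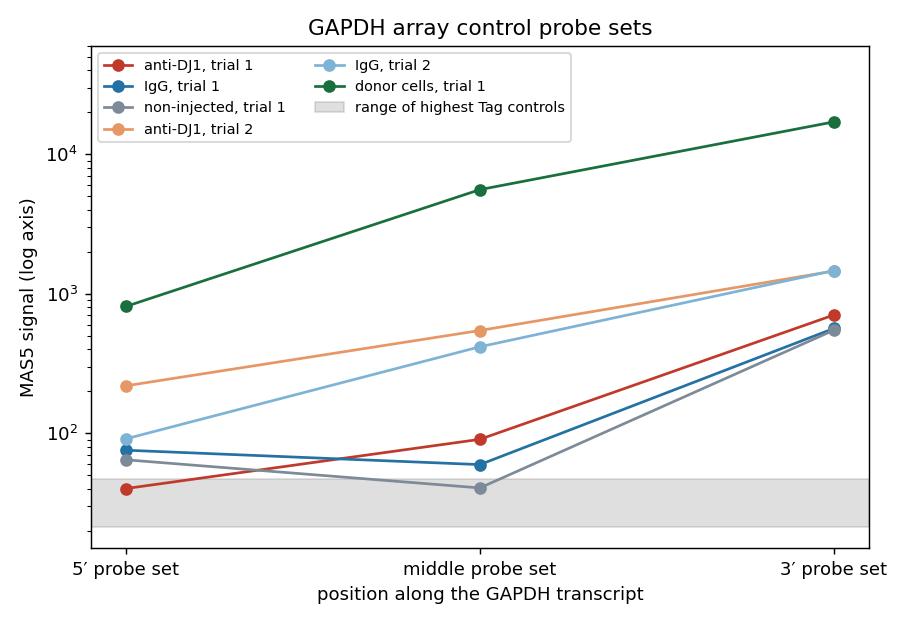
MAS5 signal (log axis) of the brightest set of 3 GAPDH array controls by position along the transcript, 1 line per array, with the range of the highest Tag controls (21.4 to 47.0) shaded. The trial 2 embryo arrays lie between the trial 1 embryo arrays and the donor cells at all 3 positions, and lie furthest from the trial 1 arrays at the middle control.

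The rest of the glycolytic path was taken as a list of 24 symbols, of which 16 were annotated and 10 tested. Of these, 7 were lower in embryos than in donor cells, 1 was higher and 2 did not pass, with a median of -1.84. Over all tested probe sets 72.9% passed, 36.5% as lower and 36.4% as higher, so calls are common in this comparison. The glucose transporter genes SLC2A1 and SLC2A3 changed by -1.67 ± 0.22 and -2.32 ± 0.54, SLC2A3 being above the Tag controls on 3 of 5 embryo arrays. GPI, which makes fructose 6-phosphate, changed by -3.31 ± 0.22, and BPGM, which makes 2,3-bisphosphoglycerate, by -2.20 ± 0.19. HK1, the hexokinase that traps glucose in the cell, read 1567 in donor cells and 24.0 to 41.2 in embryos, where only 1 of 5 arrays lay above its Tag controls. The donor signal of HK1 was at least 38.9-fold higher, the embryo arrays at or below background being counted at the lowest signal above it and means being taken on the log2 scale.

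The phosphofructokinase genes moved less. PFKL changed by -2.01 ± 0.59 (adjusted p = 0.0587 under quantile normalization, limma). It lay above the Tag controls on 3 of 5 embryo arrays. The anti-DJ1 (23.7) and non-injected (16.7) arrays of trial 1, which enter this estimate, were not above background. PFKM changed by -0.59 ± 0.23, and PFKP stood at -0.49 ± 0.28 without passing (limma, adjusted p = 0.133). PFKM and PFKP turned positive under both other scalings (0.14 and 0.27 under quantile normalization), where neither passed. The exception on the high side was ALDOC, the brain-type aldolase, which was higher in embryos by 1.49 ± 0.26 (limma, adjusted p = 0.000192). PKM, the pyruvate kinase gene whose enzyme closes the path, stood at 0.18 ± 0.21 (limma, adjusted p = 0.454) and passed as higher under both other scalings, at 0.90 and 0.80. Without the trial block, the list counted 5 lower and 1 higher.

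Genes for the transport and fate of lactate and pyruvate formed a list of 24 symbols, 15 annotated and 11 tested. Of the 11, 7 were lower and 2 higher in embryos (median -1.85), beside 72.9% called over all tested probe sets, 36.5% as lower. LDHC, the germ-cell lactate dehydrogenase subunit, ran against LDHA and LDHB: it read 1497 and 1204 in anti-DJ1, 1497 and 1501 in IgG and 997 in non-injected embryos, but 14.4 in donor cells, below that array's highest Tag control of 34.3. The embryo signal was at least 38.5-fold higher (limma, adjusted p = 3.44e-11). The pyruvate dehydrogenase complex genes split. PDHB changed by -4.55 ± 0.25, DLD by -4.34 ± 0.22 and PDHA1 by -1.88 ± 0.24, while DLAT stood at -0.09 ± 0.17 and did not pass, although it passed as higher under the common 75th percentile at 0.55. PDK3, a kinase that inhibits the complex, was higher in embryos by 0.46 ± 0.14.

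The mitochondrial pyruvate carrier genes MPC1 and MPC2 changed by -1.85 ± 0.16 and -0.79 ± 0.15, the latter not passing under the common 75th percentile (-0.16). PC and PCK1, which lead pyruvate back toward glucose, changed by -1.92 ± 0.34 and -2.01 ± 0.42. LDHD, which acts on D-lactate, stood at -1.07 ± 0.52 without passing (limma, adjusted p = 0.0808). SLC16A3, the lactate exporter MCT4 and a partner of BSG, was too dim to test: it read 133 in donor cells and 1.46 to 13.6 on the embryo arrays, none above their Tag controls, so that donor cells were at least 3.68-fold higher. EMB, another partner of the transporters, was near background throughout and was not tested. Without the trial block, this list counted 5 lower and 1 higher.

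Anti-DJ1 embryos were set against IgG embryos to see what the antibody against DJ-1 goes along with beyond injection. No member passed the threshold, and neither did any other probe set (0% of 14399 called by limma, with 838 at an unadjusted p under 0.05 and a lowest adjusted p of 0.0882). Of the 10 member probe sets, 2 had an unadjusted p under 0.05. The median over the 7 genes was 0.07, against -0.01 over all.

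BSG was higher in anti-DJ1 embryos in both trials, by 0.88 and 0.38 on the log2 scale, with a fitted difference of 0.63 ± 0.26 and an interval of 0.07 to 1.19 (limma, unadjusted p = 0.0302, adjusted p = 0.853). Its trial 1 signals of 50.7 (anti-DJ1) and 25.4 (IgG) lay close to those arrays' highest Tag controls of 33.3 and 21.4, which limits the size of 0.88. GAPDH probe set Ssc.14942.1.S1_s_at was also higher in both trials, by 0.96 and 0.33, fitted at 0.64 ± 0.20 (limma, unadjusted p = 0.00762, adjusted p = 0.816). The brightest GAPDH probe set, however, stood at 0.14 ± 0.13, with an interval of -0.15 to 0.42, so the probe sets of this gene differed in size. Of the 12 GAPDH probe sets outside the exceptional pair, 9 had anti-DJ1 above IgG in both trials. These probe sets read 1 gene on the same arrays, so they are not replicates. The share over all probe sets was not computed. AFFX-Ssc-gapdh-M_s_at, counted among the 9, was not above background in trial 1 embryos. ENO1 stood at 0.44 ± 0.24 (interval -0.08 to 0.96).

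TPI1 and LDHA were lower in anti-DJ1 embryos in both trials, TPI1 by -0.33 and -0.32 and LDHA by -0.23 and -0.22. Their fitted differences were -0.33 ± 0.19 (limma, adjusted p = 0.915) and -0.22 ± 0.12 (limma, adjusted p = 0.896). Within-trial values that repeat this closely did not pass over all probe sets, and the intervals ran from -0.75 to 0.10 and from -0.49 to 0.04. PGK1 and LDHB gave opposite signs in the trials and stood at 0.02 ± 0.15 (interval -0.30 to 0.34) and 0.07 ± 0.10 (interval -0.16 to 0.29). Of the 7 genes, only BSG had an interval that reached 1 log2 unit, a doubling, in either direction. None of the 10 tested genes of the glycolysis list and none of the 11 of the lactate and pyruvate list passed. The smallest unadjusted p-values of the glycolysis list belonged to SLC2A3, not above background in IgG embryos, and PFKL (-0.79 ± 0.51). PFKL was not above background in the anti-DJ1 embryos of trial 1. In the lactate and pyruvate list they belonged to DLD (-0.25 ± 0.19) and PCK1 (-0.43 ± 0.37).

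**Figure D4:**
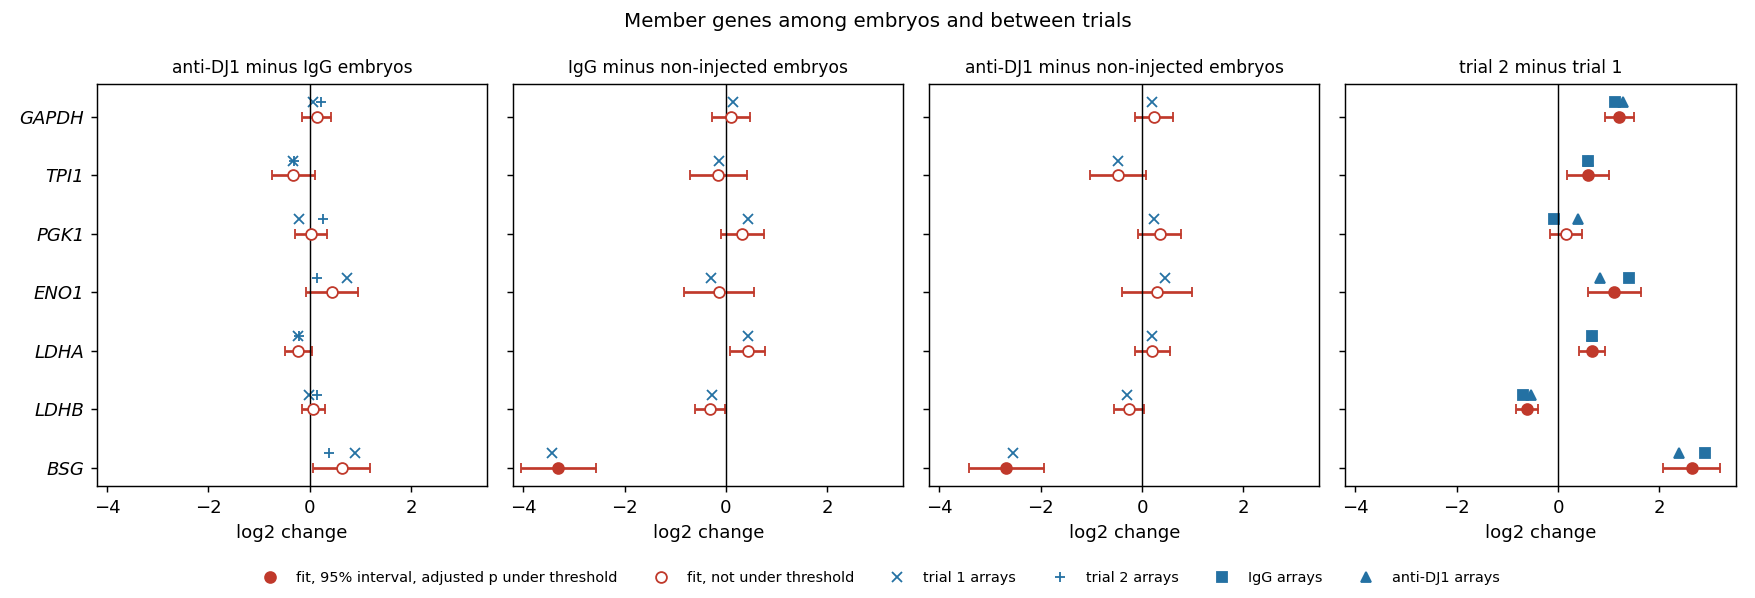
Log2 change of the 7 genes in the 3 comparisons among embryos and between trials, as the limma fit with its 95% interval (circles, filled where the adjusted threshold was passed), with the differences within single trials or within 1 injection group as smaller marks. BSG alone passes against non-injected embryos, at -3.31 and -2.68, and 6 of the 7 genes pass between trials.

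Injected and non-injected embryos were compared to see what the injection itself goes along with. A single non-injected array, of trial 1, serves both comparisons, so they share their control. BSG was the member that passed in each: its log2 change was -3.31 ± 0.34 in IgG embryos (limma, adjusted p = 0.00122) and -2.68 ± 0.34 in anti-DJ1 embryos (limma, adjusted p = 0.00453). Within trial 1 alone, it was -3.44 and -2.55. In IgG embryos 1.26% of tested probe sets passed, 0.347% as lower, and in anti-DJ1 embryos 1.92% passed, 0.653% as lower. A larger absolute change than that of BSG was seen in 0.118% of tested probe sets for IgG embryos.

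The BSG difference rested on the injected arrays of trial 1. The trial 2 signals of 284 and 217 lay near the 319.6 of the non-injected array, and trial 2 had no non-injected array of its own. Without the trial block the change was -1.99 in IgG and -1.36 in anti-DJ1 embryos (limma, adjusted p = 0.994 and 0.996), and without a mean-variance trend the adjusted p rose to 0.241 and 0.244. Leaving out the IgG array of trial 1 gave -0.55 for IgG embryos (adjusted p = 0.925), and leaving out the anti-DJ1 array of trial 1 gave -0.17 for anti-DJ1 embryos (adjusted p = 0.999).

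The other 6 genes did not pass against non-injected embryos. For IgG embryos, LDHA stood at 0.43 ± 0.16 (limma, adjusted p = 0.187) and LDHB at -0.32 ± 0.14 (limma, adjusted p = 0.256), each with an unadjusted p under 0.05, and PGK1 stood at 0.33 ± 0.19. GAPDH stood at 0.10 ± 0.17, ENO1 at -0.14 ± 0.31 and TPI1 at -0.15 ± 0.26. For anti-DJ1 embryos the same genes stood at 0.20 for LDHA, -0.25 for LDHB, 0.35 for PGK1, 0.24 for GAPDH, 0.30 for ENO1 and -0.48 for TPI1. No tested gene of the glycolysis list or of the lactate and pyruvate list passed in either comparison. In IgG embryos the smallest unadjusted p-values belonged to SLC2A3, not above background in IgG embryos, and BPGM (0.57 ± 0.22), and to LDHC (0.66 ± 0.22) and DLAT (0.43 ± 0.19). In anti-DJ1 embryos they belonged to the same 4 genes, at -0.81 ± 0.62, 0.73 ± 0.22, 0.51 ± 0.22 and 0.38 ± 0.19.

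Between the trials, most of the genes differed. GAPDH, ENO1, TPI1, LDHA and BSG were higher in trial 2 and LDHB was lower, while PGK1 did not pass. The fitted changes were 1.21 ± 0.13 for GAPDH (limma, adjusted p = 7.13e-05), 1.11 ± 0.24 for ENO1 (adjusted p = 0.00403) and 0.67 ± 0.12 for LDHA (adjusted p = 0.00142). TPI1 changed by 0.59 ± 0.19 (adjusted p = 0.0357), PGK1 stood at 0.15 ± 0.15 (adjusted p = 0.468), and LDHB changed by -0.61 ± 0.10 (adjusted p = 0.000964). Of the 10 member probe sets 7 passed as higher and 1 as lower, against 32.3% of all tested probe sets, 18.9% as higher and 13.4% as lower.

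BSG had the largest change of the 7 genes, 2.64 ± 0.26 (limma, adjusted p = 4.26e-05), with 2.89 between the IgG arrays and 2.39 between the anti-DJ1 arrays. A larger absolute change was seen in 0.181% of tested probe sets. GAPDH likewise moved in both pairs, by 1.13 and 1.29, and LDHB by -0.69 and -0.54. Scaling shifted this comparison: the median over all probe sets was 0.14 as deposited, 0.00 under quantile normalization and -0.10 with a common 75th percentile, and the share of calls that were higher fell from 58.7% to 47.3% and 34.1%. Under those scalings TPI1 no longer passed (adjusted p = 0.238 and 0.204) and PGK1 turned to -0.09 with the common 75th percentile. GAPDH, ENO1, LDHA, LDHB and BSG kept their direction and their call under both. TPI1 also missed the threshold with no filter on dim probe sets (adjusted p = 0.0515). Without a mean-variance trend in limma, no probe set passed between trials (4935 at an unadjusted p under 0.05), with GAPDH and BSG at an adjusted p of 0.0823.

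Control values moved with the trial. The poly-A spike controls, bacterial transcripts added to RNA before labelling, read 303 to 3732 at their 3′ ends on the trial 2 arrays and 1.87 to 37.7 on all trial 1 arrays. The 3′ over 5′ ratio of the EF1A control, which is high where labelled RNA is short, was 23.9 to 30.0 in trial 1 embryos, 8.20 and 9.34 in trial 2 embryos and 4.23 in donor cells. That of actin was 258 to 665, 45.0 and 68.4, and 141 in the same order, and that of GAPDH was 7.46 to 17.6, 6.65 and 16.1, and 21.1. The 3 controls thus did not rank the donor cells alike, and the GAPDH ratio overlapped between trials. The summed oocyte markers were 37930 and 38530 in trial 2 embryos and 16430 to 21240 in trial 1 embryos, and all 6 were higher in trial 2 (median 0.89), or 5 and 4 of them under quantile normalization and the common 75th percentile. The part of these differences in the trial and donor cell results was not tested.

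The list counts between trials stand beside 32.3% called over all tested probe sets, 18.9% as higher and 13.4% as lower. In the glycolysis list, 5 of 10 genes were higher in trial 2 and none lower. These were SLC2A1 at 0.98 ± 0.19, PFKM at 1.21 ± 0.20, PFKP at 1.09 ± 0.24, ALDOC at 0.68 ± 0.22 and PKM at 0.56 ± 0.18. Under each of the other scalings 3 of the 10 passed, and ALDOC and PKM did not. Of the 11 tested genes of the lactate and pyruvate list, MPC1 (1.25 ± 0.14), MPC2 (0.68 ± 0.13) and PDHA1 (0.63 ± 0.21) were higher and PDK3 (-0.84 ± 0.12) was lower. The other 7 did not pass. PDHA1 did not pass under either other scaling.

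For the lactate-handling genes, the genes with the most similar profile over the 6 arrays were taken as those with the smallest Euclidean distance between centred log2 values, a description over 6 arrays of which 1 is the donor cell array. For LDHA these were LOC100524308 (distance 0.165), VDAC3, a mitochondrial outer membrane channel (0.199), and PSMB5, a proteasome subunit (0.255). For LDHB they were ATP6V0E1, a proton pump subunit (0.218), CDC37L1 (0.245) and PPM1B, a protein phosphatase (0.251). ATP6V0E1 read 7073 and 5015 in anti-DJ1, 7285 and 4601 in IgG and 8522 in non-injected embryos, with donor cells at 17098, the same order of arrays from low to high as LDHB. It was picked for its closeness to LDHB over these arrays, so a like order follows from the choice. BSG had no neighbour as close: PUS1 (1.1), MRPS25 (1.32) and NUDT22 (1.49) came nearest. These 3 were picked for their closeness to BSG over the same arrays, so a shared low signal in the injected embryos of trial 1 follows from the choice. None of the 3 was above background on those arrays. PUS1, which modifies transfer RNA, read 11.5 and 103 in anti-DJ1, 9.21 and 67.4 in IgG, 49.2 in non-injected embryos, with donor cells at 236.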

How the data were processed

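The authors deposited linear intensities, 1 per probe set, and the submitters' processing notes name MAS5. Neither a version of it nor a scaling target is stated in the sources used here. Per the labels' protocols, 50 ng of total RNA per sample was amplified in 2 labelling cycles. The platform annotation, which can be old, gave a single symbol to 10069 of the 23999 probe sets that are not among the 124 array controls, several to 198 and none to 13732.

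Values were set to log2(intensity + 4.57), the 10th percentile of all signals, which understates changes of dim probe sets. Probe sets were ranked by the mean of these log2 values. The upper 60% (14399) lay above a cut that, taken back from the log2 scale, equals a signal of 39.6. They were tested two-sided with limma 3.58.1 in R 4.3.3 (lmFit, eBayes with trend), with Benjamini-Hochberg adjustment over all tested and a threshold of 0.05. The fit had terms for group and trial over 6 arrays. This left 1 residual degree of freedom, to which moderation added 10.7. The design text names each trial's IgG array as its control; across probe sets, same-trial anti-DJ1 and IgG arrays deviated together from the group means (r = 0.588). A gene with several probe sets is represented by the brightest. All 8 chosen genes were to be named, then members of other lists past the threshold (or, where none passed, up to 2 with the smallest p), and the 3 nearest profiles for LDHA, LDHB and BSG. Further list genes that missed the threshold, SLC16A3 and EMB were named after their values were seen. The members and lists were chosen with earlier results of these data known. Alternatives covered pseudocount, filter, scaling, trend, trial block, other probe sets and leaving out each replicated array. List counts under the other scalings and without the trial block were added after seeing the data.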

Additional observations from a re-analysis of the deposited data

Results flagged for a closer look

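The poly-A spike controls, which enter no comparison, lay far above background on the trial 2 arrays alone. In anti-DJ1 and IgG embryos of trial 2, the 3′ probe set of dap read 3032 and 3732, that of lys 342 and 303, that of phe 489.8 and 578, and that of thr 1142 and 1493. On the 4 trial 1 arrays, donor cells included, none of the 4 exceeded 37.7.

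Among the 7 genes, 2 differed between anti-DJ1 and IgG embryos in opposite directions in the 2 trials, with 1 array per group in each. PGK1 was lower in anti-DJ1 embryos in trial 1 (-0.21 on the log2 scale) and higher in trial 2 (0.26). LDHB was -0.01 in trial 1 and 0.15 in trial 2. Neither difference between trials was tested.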

How the results depend on the processing

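Over 435 gene results under alternatives, 385 kept their direction and their side of the threshold, 25 lost the call and 25 changed sign; those between embryos and donor cells held all directions. Without the trial block (no replicate block) calls fell to 0 for IgG minus non-injected embryos and 0 for anti-DJ1 minus non-injected embryos (532 and 543 at an unadjusted p under 0.05, limma), and without a mean-variance trend to 0 and 0 (1772 and 1832) and to 0 between trials (4935). In the same order, calls against non-injected embryos were 447 and 589 with a 25th percentile pseudocount, 48 and 71 with no filter, 726 and 878 with the upper 40% tested, 312 and 466 with a common 75th percentile, and 67 and 148 with a filter on mean linear signal, chosen after seeing the data. Leaving out 1 replicated array, without the block, gave 0 to 0 and 0 to 1. For anti-DJ1 minus IgG, 1 probe set passed with the 25th percentile pseudocount, 1 under quantile normalization, 1 with the common 75th percentile and 43 with the upper 40% tested.

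No anti-DJ1 minus IgG value of a member passed in any setting. Leave-one-out log2 values there ran from -0.51 to 0.78 for GAPDH (-0.43 without the IgG array of trial 1), -0.26 to 1.14 for ENO1, -0.17 to 0.22 for PGK1 (-0.02 without the IgG array of trial 2), -0.56 to 0.11 for LDHA, -0.28 to 0.41 for LDHB (-0.20 without the anti-DJ1 array of trial 1) and -0.81 to 2.08 for BSG. IgG minus non-injected ran from -0.28 to 1.12 for ENO1 and -0.14 to 0.44 for TPI1, and anti-DJ1 minus non-injected from -0.48 to 0.12 for TPI1. With no replicate block, IgG minus non-injected turned to 0.42 for ENO1 and 0.15 for TPI1. GAPDH probe sets Ssc.1035.1.S1_at and Ssc.16135.1.A1_at gave -0.49 and -0.51 for IgG and -0.31 and -0.39 for anti-DJ1 against non-injected embryos. PGK1 between trials was -0.094 with a common 75th percentile. The causes of these changes were not tested. Dim probe sets, BSG in trial 1 injected embryos among them, are limited by their closeness to background.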

Other observations

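The pentose phosphate pathway, which branches from glycolysis to make NADPH and ribose, held genes of both directions between embryos and donor cells. All 5 annotated genes of 7 were tested, and 3 were higher and 2 lower in embryos, with the same counts under both other scalings and 2 and 2 without the trial block. Over all tested probe sets 36.4% were higher and 36.5% lower, so both directions are common in this comparison. RPIA, which makes ribose 5-phosphate, read 18048 and 10807 in anti-DJ1, 15327 and 12004 in IgG and 18732 in non-injected embryos, with donor cells at 259, a log2 change of 6.04 ± 0.13 (limma, adjusted p = 2.06e-12). RPE and PGD were higher by 1.49 ± 0.27 and 0.77 ± 0.21. The transketolase and transaldolase genes TKT and TALDO1, which return carbon to glycolysis, changed by -5.02 ± 0.36 and -3.33 ± 0.29. TKT read 1673 in donor cells and 24.8 to 167 in embryos, where 4 of 5 arrays lay above the Tag controls. No gene of this list passed between embryo groups, the smallest unadjusted p being that of TKT in IgG against non-injected embryos (limma, adjusted p = 0.126), where the non-injected array was not above background.

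Of 8 tested genes of the hypoxia response, which can raise glycolytic transcripts, 5 were lower and 2 higher in embryos than in donor cells, with the same counts under both other scalings and 3 and 2 without the trial block. This stands beside 72.9% called over all tested probe sets, 36.5% as lower. EPAS1 and CA9 were higher by 3.66 ± 0.21 and 3.79 ± 0.16. VEGFA, EGLN1, P4HA2, ADM and HIF1A changed by -5.75, -4.29, -2.66, -1.87 and -1.33. VEGFA read 3319 in donor cells and 86.4 and 69.1 in anti-DJ1, 89.1 and 46.7 in IgG and 23.0 in non-injected embryos, the last below the Tag controls. Against the non-injected array it passed as higher in anti-DJ1 embryos (limma, adjusted p = 0.0427) and not in IgG embryos (adjusted p = 0.0714). No size is given because the non-injected array was not above background. A dimmer VEGFA probe set, not tested, read 3153 in donor cells. In embryos it read 1.07 and 2.66 in anti-DJ1, 29.7 and 2.84 in IgG and 32.6 in non-injected. It thus did not repeat the higher anti-DJ1 signal, but only 1 of the 5 embryo arrays, IgG of trial 1, lay above the Tag controls. The remaining VEGFA probe sets lay above them on no embryo array. A HIF1A probe set, Ssc.390.2.A1_at, read 123 and 21.0 in anti-DJ1, 270 and 37.2 in IgG, 28.5 in non-injected embryos, with donor cells at 277.5. It passed as higher in IgG than in non-injected embryos (limma, adjusted p = 0.0188), again against an array not above background, and 2 of the 5 embryo arrays, both of trial 1, lay above the Tag controls. The brightest HIF1A probe set did not pass there. The trial 2 signals of Ssc.390.2.A1_at lay near that of the non-injected array. A dimmer CA9 probe set lay above the Tag controls on all 5 embryo arrays. It read 412 and 1649 in anti-DJ1, 225 and 1514 in IgG and 104 in non-injected embryos. It passed as higher in anti-DJ1 than in non-injected embryos, by 1.76 ± 0.31. In IgG embryos it did not pass (1.27 ± 0.31). The brightest CA9 probe set passed in neither comparison. Without the trial block none of these calls held, since 0 probe sets passed in either comparison. At an unadjusted p under 0.05 there were 532 for IgG and 543 for anti-DJ1 embryos.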
